A study of Caenorhabditis elegans with 6 samples.

Results

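The genes described here are the astacin metalloproteases of Caenorhabditis elegans and a set of genes named for moulting. They were chosen by name from a table of gene counts: every row named nas or mlt followed by a number, and bli-4, bli-5, dpy-31, hch-1, toh-1, noah-1 and noah-2. The rule reads names alone and gave 50 genes out of 45836 gene rows. Of these, 37 were nas rows, 6 were mlt rows and 7 were the other named rows. hch-1, dpy-31 and toh-1 also belong to the astacin family, so the set held 40 astacins and 10 other genes.

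A nematode larva grows by making a new cuticle under the old one and then shedding the old one, a step called ecdysis. Astacins are secreted zinc proteases that are made with an inhibitory propeptide. Worms have many of them, and members are known to digest the eggshell at hatching, to process procollagens and to release the old cuticle. The mlt genes were named for larvae that fail to shed their cuticle when the gene is lost, and the NOAH proteins belong to the extracellular matrix on the outer face of the epidermis.

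RNA was sequenced from whole first-stage (L1) larvae, with 3 libraries from a div-1(or148) strain and 3 from a strain in the N2 background. The mutant strain, BCN6101, was EU548 with a pdaf-21::mCherry reporter, and the wild-type strain, BCN1050, carried the same reporter. Both strains were cultured at 20 °C on OP50 bacteria, and embryos freed by bleaching hatched overnight in M9 buffer, with no feeding described before RNA was taken. div-1 encodes a subunit of the polymerase alpha-primase that starts DNA synthesis, and the comparison asks how transcript levels differ between mutant and wild-type larvae.

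The libraries held 25051167 to 27632878 counts each. Levels are given in CPM, counts per 1e6 counts after scaling for library size and composition. div-1 itself was at 44.8, 29.3 and 31.1 CPM in the mutant and 24.6, 30.2 and 43.3 CPM in the wild type, and because or148 is a point allele this level does not check the genotype. mut-16, a gene needed for small RNA amplification in the germline and soma, was at 8.34, 4.66 and 6.56 CPM in the mutant and 53.5, 51.8 and 50.6 CPM in the wild type (log2 fold change -2.99, edgeR quasi-likelihood test, adjusted p = 0.002). A difference that goes with the low mut-16 level cannot be told apart here from one that goes with div-1(or148), since every mutant library had both. Markers of epidermis, seam, pharynx, intestine, muscle, neurons and germline precursors were all detected, and the sperm markers summed to at most 0.188 CPM. The oocyte and yolk markers vit-2, vit-6 and puf-5, which larvae of this stage should lack, summed to 7.05, 6.93 and 6.11 CPM in the mutant and 3.94, 6.68 and 4.80 CPM in the wild type. Of these, vit-6 had an unadjusted p under 0.05 (log2 fold change 0.77, edgeR adjusted p = 0.459), and their part in the results was not tested. Mutant replicate 1 and wild-type replicate 3 stood apart from the other libraries in a shared way that runs through many results below.

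Of the 50 genes, 43 had enough counts to be tested, and 39 of these were above the count filter in all 6 libraries. The untested genes were nas-2, nas-16, nas-17, nas-18, nas-21, nas-22 and nas-40. nas-2 and nas-17 had 0 counts in every library, and the largest count of an untested gene in any library was 12, for nas-18. nas-3 and nas-27 were above the filter in all 3 mutant libraries but not in all 3 wild-type libraries, so they could pass it through the group in which they were higher. Except for nas-40, which had no match in the annotation, the untested genes lie on chromosome V, and all of them but nas-2 in 2 runs of neighbouring genes, nas-16 to nas-19 and nas-20 to nas-22, of which only nas-19 and nas-20 passed the filter.

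Levels differed widely within the set. Per kilobase of exon, noah-2 averaged 234.9 CPM over the 6 libraries, noah-1 averaged 172 CPM and mlt-8 averaged 141 CPM. hch-1 was the most abundant astacin per kilobase at 85.9 CPM, followed by nas-9 at 52.4 CPM and dpy-31 at 42.3 CPM. hch-1 encodes the hatching enzyme and dpy-31 a procollagen C-proteinase. In all, 7 genes were at 50 CPM per kilobase or above and 10 were under 1. The median of the tested genes was 6.14 CPM per kilobase, against 12.6 over the 16289 genes tested in the whole table.

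**Figure D1:**
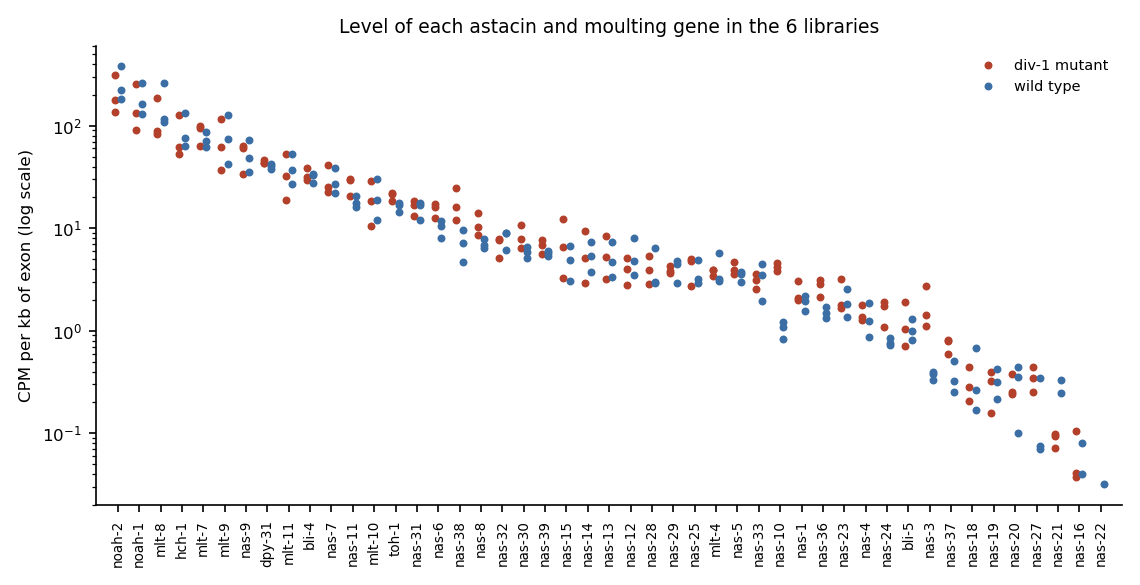
CPM per kilobase of exon in each library, div-1 mutant points left of wild-type points, on a log axis, for the 47 genes of the set with counts and an annotated length, ordered by mean level; libraries with 0 counts have no point. The matrix genes noah-2 and noah-1 are at the high end and the nas-16 to nas-22 genes at the low end.

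A single gene of the set, the astacin gene nas-10, passed the test between mutant and wild type. That is 1 of the 43 tested members (2.33%), beside 0.896% of all genes tested. The higher direction held 1 of 43, beside 0.884% of all genes, and the lower direction 0 of 43, beside 0.0123%. DESeq2 gave an adjusted p to 45 members and 18740 genes, and called 3 members higher and 0 lower, beside 471 genes higher and 7 lower. With an unadjusted p under 0.05, 11 of the 43 were higher in the mutant (25.6%, beside 8.26% of all genes) and 0 were lower (beside 2.44%). All 11 were astacins. In 10 of the 43 (23.3%) every mutant library was above every wild-type library, beside 10.2% of all genes, and in 0 every mutant library was below, beside 7.73%. Without nas-3 and nas-27 these counts were 10 and 9 of 41. The median log2 fold change of the tested members was 0.145, against -0.029 over all genes tested. That median was 0.016 without mutant replicate 1, 0.075 without wild-type replicate 2, 0.223 without mutant replicate 2, and it reached 0.271 without wild-type replicate 3. The count of 11 at an unadjusted p under 0.05 was 6 if mutant replicate 3 was left out (beside 5.82% of all genes) and 7 if wild-type replicate 1 was (beside 6.84%).

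Astacins and the other genes of the set were also counted apart. Of the 33 tested astacins, 25 were higher on average in the mutant (75.8%, beside 45.9% of all genes tested), and the 33 had a median of 0.215 on the log2 scale. The 25 include nas-3 and nas-27, which could pass the count filter through the mutant group. The subgroup I median below also includes nas-3, and that of subgroup III includes nas-27. Of the 10 other genes, 3 were higher on average, and the median was -0.121. The astacin count stayed between 22 and 26 of 33 when any single library was left out, with medians of 0.126 to 0.374. The other genes depended on single libraries: 10 of 10 were higher on average without wild-type replicate 3 (median 0.116), 7 without mutant replicate 2 (0.107) and 1 without mutant replicate 1 (-0.544). None of those 10 passed the test, and none reached an unadjusted p under 0.05. By the numbering of the family, medians were 0.28 in subgroup I (nas-1 to nas-5, 4 tested) and 0.35 in subgroup II (nas-6 to nas-15, 10 tested). The median was 0.20 in subgroup III (nas-16 to nas-30, 10 tested with toh-1 among them). Subgroup V (nas-33 to nas-38, 6 tested with dpy-31 and hch-1 among them) had a median of 0.49, and the pair of subgroup IV, nas-31 and nas-32, had -0.08. Whether the subgroups differ from each other was not tested.

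**Figure D2:**
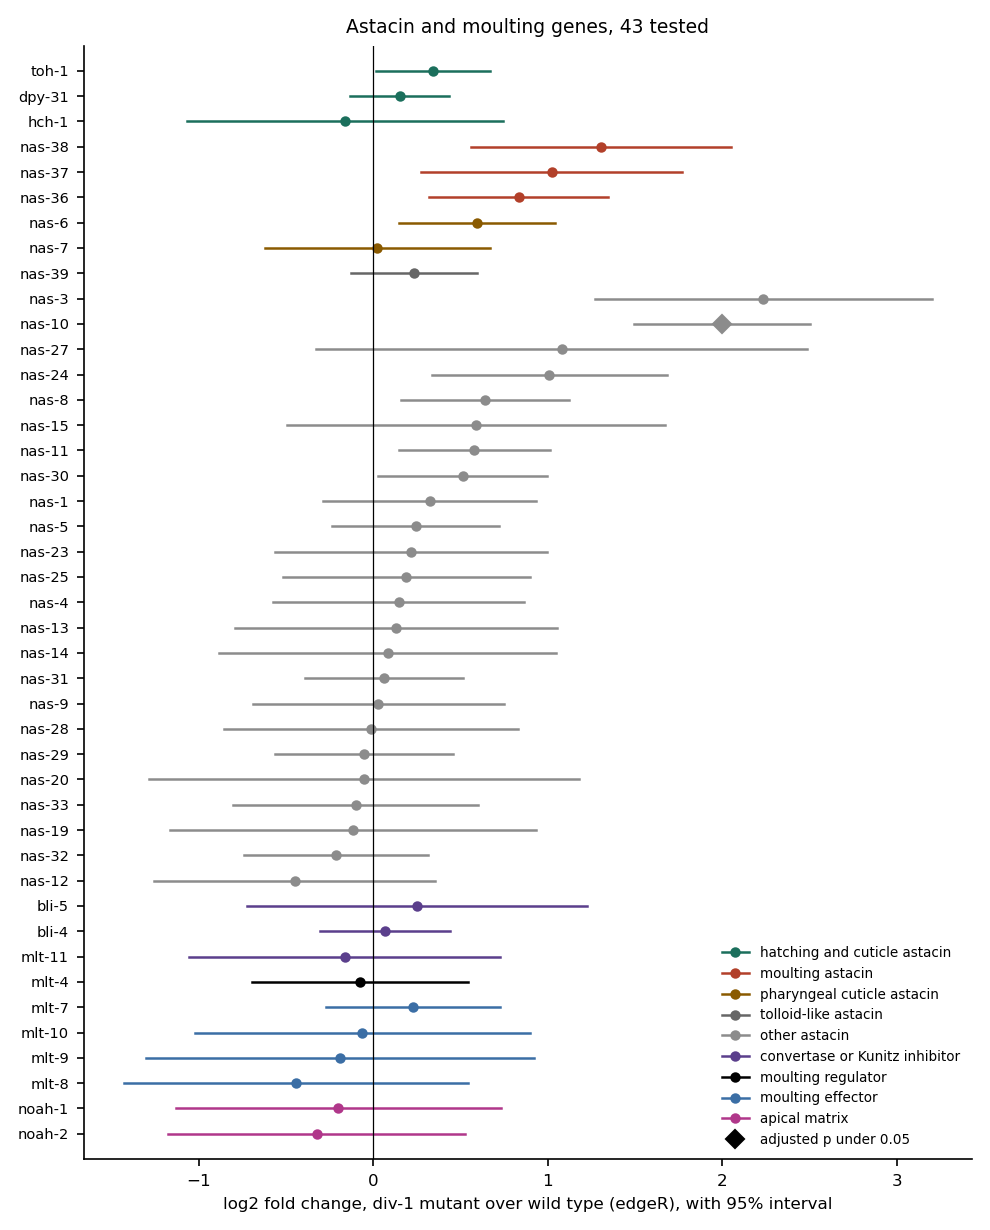
Log2 fold change, div-1 mutant over wild type, with 95% intervals from the edgeR fit, for the 43 tested genes of the set, grouped by role. nas-10 is the gene called at an adjusted p under 0.05, and the moulting astacins nas-36, nas-37 and nas-38 all lie above 0.

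nas-10 was at 8.05, 6.76 and 7.42 CPM in the mutant libraries and 1.48, 2.14 and 1.94 CPM in the wild-type libraries. The groups were far apart, and the spread within each was small: 7.41 ± 0.646 CPM in the mutant and 1.85 ± 0.339 CPM in the wild type (SD, n = 3 each). nas-10 rose 4.0-fold in the mutant, with a 95% interval of 2.81 to 5.68 (log2 fold change 2.00, SE 0.219, edgeR adjusted p = 0.00848). Its counts summed to 586 over the mutant and 140 over the wild-type libraries. The gene K09C8.2 lies on the other strand over it and had at most 4 counts in any library. With any single library left out, the log2 fold change of nas-10 stayed between 1.86 and 2.11, but without mutant replicate 3 its edgeR adjusted p was 0.0612.

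nas-36, nas-37 and nas-38 are the astacins tied to moulting. nas-36 and nas-37 are needed to shed the old cuticle, and nas-38 acts at the moult and in the sleep-like state that accompanies it. nas-38 was at 56.2, 27.5 and 37.3 CPM in the mutant and 16.3, 10.8 and 21.9 CPM in the wild type. Every mutant library was above every wild-type library, though mutant replicate 1 and wild-type replicate 3 were the highest of their groups. The fold was 2.47 with a 95% interval of 1.47 to 4.14 and did not pass the test over all genes (edgeR adjusted p = 0.142). DESeq2 on the same counts called it, with an adjusted p of 0.00887.

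nas-36 was at 7.01, 4.82 and 6.48 CPM in the mutant and 3.40, 3.02 and 3.87 CPM in the wild type, or 1.78-fold (95% interval 1.25 to 2.54), with an edgeR adjusted p of 0.175. nas-37 was the scarcest of these astacins, at 2.00, 1.53 and 2.07 CPM in the mutant and 0.820, 0.649 and 1.29 CPM in the wild type, or 2.03-fold (95% interval 1.21 to 3.41), with an edgeR adjusted p of 0.28. For all 3 moulting astacins every mutant library was above every wild-type one, beside 10.2% of all genes tested, and none of them passed the test. Their summed level was 65.2, 33.9 and 45.8 CPM in the mutant and 20.5, 14.5 and 27.1 CPM in the wild type, set mostly by nas-38. The gene C17G1.5 lies on the other strand over nas-37 and held 543 to 630 counts per library in the mutant and 625 to 665 in the wild type (log2 fold change -0.17, edgeR adjusted p = 0.712).

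nas-3 had the largest fitted difference of the tested members and few counts. It was at 1.25, 3.05 and 1.58 CPM in the mutant and 0.369, 0.420 and 0.443 CPM in the wild type, from 151 and 31 counts in all. The lowest mutant library was above the highest wild-type library, and mutant replicate 2 was the highest. The fold was 4.71 with an interval of 2.41 to 9.20, just short of the threshold (edgeR adjusted p = 0.0614). It was called by DESeq2 (adjusted p = 9.98e-04), by edgeR with nearly no count filter (adjusted p = 0.016), and without mutant replicate 1 (edgeR adjusted p = 0.0455). Neither limma voom, other scalings nor a stricter count filter called it. With any single library left out its log2 fold change stayed between 1.77 and 2.48, but its edgeR adjusted p reached 0.23. As said above, nas-3 could pass the count filter through the mutant group. nas-24 was at 1.65, 2.64 and 2.94 CPM in the mutant and 1.11, 1.30 and 1.17 CPM in the wild type, or 2.01-fold (95% interval 1.26 to 3.21; edgeR adjusted p = 0.219).

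nas-6 and nas-7 act in the pharynx, where nas-6 is needed for the cuticular grinder, with nas-7 as its close relative. nas-6 was at 23.6, 18.5 and 24.99 CPM in the mutant and 11.8, 15.3 and 17.3 CPM in the wild type, without overlap (log2 fold change 0.60, edgeR adjusted p = 0.294). nas-7 was at 55.5, 30.3 and 34.1 CPM in the mutant and 36.6, 29.97 and 51.6 CPM in the wild type. Its log2 fold change was 0.02, with an interval on the fold of 0.65 to 1.59, and its 2 highest libraries were mutant replicate 1 and wild-type replicate 3. The sign turned with 1 library left out, to -0.29 without mutant replicate 1, -0.15 without wild-type replicate 2 and -0.04 without wild-type replicate 1. The pair thus had different patterns over the libraries, and whether their fold changes differ was not tested. Summed pharyngeal muscle and transcription factor markers were at 1361, 2119 and 2373 CPM in the mutant and 1831, 1548 and 1732 CPM in the wild type, lowest in mutant replicate 1. The muscle genes myo-2 and myo-1 set most of that sum. The transcription factor pha-4 was instead highest in wild-type replicate 3 and mutant replicate 1, at 148 and 132 CPM. Another muscle marker, tnt-4, was lowest in wild-type replicate 2, at 87.0 CPM. The part of these markers in the values of nas-6 and nas-7 was not tested.

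nas-8, nas-11 and nas-30 also had an unadjusted p under 0.05. nas-8 was at 22.2, 13.6 and 16.2 CPM in the mutant and 10.9, 10.2 and 12.3 CPM in the wild type (log2 fold change 0.64, edgeR adjusted p = 0.296). nas-11 was at 36.9, 54.3 and 52.8 CPM in the mutant and 28.4, 36.9 and 31.1 CPM in the wild type (0.58, edgeR adjusted p = 0.294), and its mutant replicate 1 was level with wild-type replicate 2. nas-30 was at 31.6, 18.9 and 23.1 CPM in the mutant and 15.05, 17.2 and 19.3 CPM in the wild type (0.51, edgeR adjusted p = 0.432), with mutant replicate 2 inside the wild-type range.

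**Figure D3:**
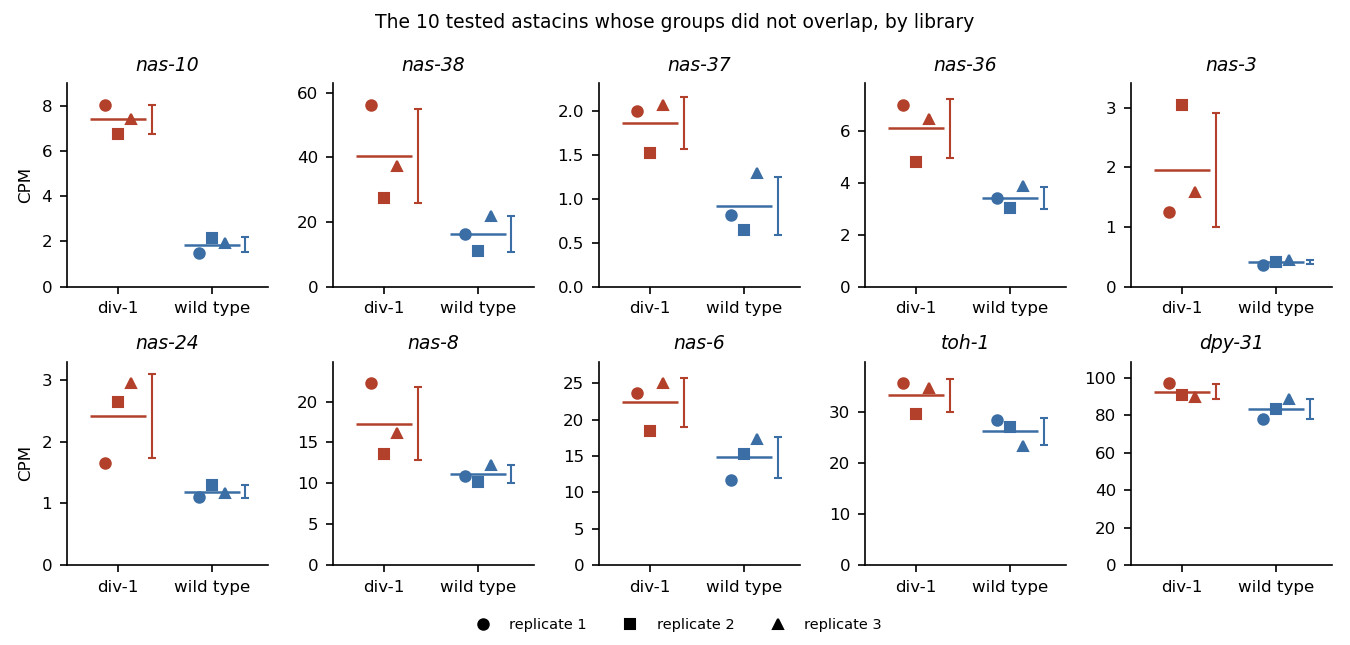
CPM of each library, from 0, for the 10 tested astacins in which every div-1 mutant library was above every wild-type library. Symbols mark replicates, horizontal lines the group means and side bars 1 SD (n = 3); nas-10 has the widest gap relative to its spread, and in dpy-31 the ranges nearly touch.

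Differences were small for toh-1, dpy-31 and nas-39. toh-1, a tolloid-like astacin, was at 35.5, 29.5 and 34.6 CPM in the mutant and 28.3, 27.1 and 23.2 CPM in the wild type (log2 fold change 0.34, edgeR adjusted p = 0.441). dpy-31 was at 96.9, 90.7 and 89.6 CPM in the mutant and 77.8, 83.3 and 88.7 CPM in the wild type. Its mutant libraries were all above the wild-type ones, by a narrow margin, and its fold of 1.11 had an interval of 0.913 to 1.35 (edgeR adjusted p = 0.712). nas-39, related to vertebrate BMP-1 and tolloid, stood at 0.23 on the log2 scale of mutant over wild type (edgeR adjusted p = 0.653). A gene on the same strand, F38E9.1, overlaps its exons, so reads there could belong to either. F38E9.1 held 587, 344 and 467 counts in the mutant and 310, 259 and 325 counts in the wild type (log2 fold change 0.57, edgeR adjusted p = 0.339).

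hch-1 was at 248, 102 and 121 CPM in the mutant and 145, 122 and 260 CPM in the wild type. Mutant replicate 1 and wild-type replicate 3 were more than 1.5 times above the other libraries, and the groups overlapped widely. The log2 fold change was -0.16, with a fold interval of 0.478 to 1.67 (edgeR adjusted p = 0.915). It was -0.65 without mutant replicate 1 and 0.23 without wild-type replicate 3. Next come the 5 most abundant nas genes per kilobase among those with neither a named role nor an unadjusted p under 0.05. That choice leaves out the astacins with the clearest differences. Of the 5, nas-9 was at 61.4, 115 and 110 CPM in the mutant and 63.9, 129 and 87.4 CPM in the wild type, low in replicate 1 of both groups (log2 fold change 0.03). nas-31 and nas-32 had log2 fold changes of 0.06 and -0.22, and nas-14 and nas-15 of 0.08 and 0.59, all short of the threshold. nas-15 was at 0.01 without mutant replicate 1 and 0.93 without mutant replicate 2, and nas-9, nas-14 and nas-31 turned negative when certain single libraries were left out.

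The apical matrix genes varied more between libraries than between groups. noah-1 was at 973, 347 and 500 CPM in the mutant and 619, 492 and 981 CPM in the wild type. noah-2 was at 800, 351 and 454 CPM in the mutant and 571, 468 and 972 CPM in the wild type. Both encode zona pellucida domain proteins, and for both the highest libraries were mutant replicate 1 and wild-type replicate 3 and the lowest was mutant replicate 2. Log2 fold changes were -0.20 for noah-1 (fold interval 0.456 to 1.66, edgeR adjusted p = 0.894) and -0.33 for noah-2 (0.442 to 1.44, edgeR adjusted p = 0.802). Without wild-type replicate 3 they were 0.12 and 0.04, and without mutant replicate 2 noah-1 was at 0.07. noah-1, noah-2 and mlt-11 together took 55.5%, 39.8% and 46.2% of the summed CPM of the set in the mutant libraries and 53.2%, 48.5% and 57.5% in the wild-type libraries.

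Of the moulting effectors, mlt-8, mlt-9 and mlt-10 followed the same library pattern as the NOAH genes. mlt-8 was at 205, 91.3 and 98.9 CPM in the mutant and 128, 120 and 291 CPM in the wild type (log2 fold change -0.44, edgeR adjusted p = 0.758). mlt-9 was at 242, 77.7 and 131 CPM in the mutant and 156, 88.9 and 269 CPM in the wild type (-0.19, edgeR adjusted p = 0.917). These genes act in the epidermis to complete the moult. mlt-10 was at 68.0, 24.8 and 43.5 CPM in the mutant and 44.4, 27.9 and 70.2 CPM in the wild type (log2 fold change -0.07, edgeR adjusted p = 0.968), and 2 genes on its own strand, T27A1.3 and lips-7, overlap its exons. Without wild-type replicate 3 the log2 fold changes were 0.09 for mlt-8, 0.29 for mlt-9 and 0.32 for mlt-10, while leaving out mutant replicate 2 gave 0.11 for mlt-9 and 0.22 for mlt-10.

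mlt-7 encodes a haem peroxidase that crosslinks cuticle proteins, and it ran the other way. It was at 158, 249 and 238 CPM in the mutant and 177, 220 and 155 CPM in the wild type, with mutant replicate 1 and wild-type replicate 3 the 2 lowest libraries (log2 fold change 0.23, edgeR adjusted p = 0.756). mlt-4, an ankyrin-repeat partner of the NEKL kinases, was at 7.91, 7.91 and 6.90 CPM in the mutant and 6.40, 6.11 and 11.4 CPM in the wild type (-0.08, edgeR adjusted p = 0.941), and 0.27 on the log2 scale without wild-type replicate 3. The related regulators mlt-2 and mlt-3 stand in the table under their sequence names and were not chosen by the naming rule. Their log2 fold changes were -0.21 (edgeR adjusted p = 0.705) and 0.26 (edgeR adjusted p = 0.658).

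bli-4 encodes a kexin-like proprotein convertase that cuts procollagens, and bli-5 and mlt-11 encode proteins with Kunitz-type protease inhibitor domains. bli-4 was at 291, 222 and 240 CPM in the mutant and 257, 209 and 252 CPM in the wild type, and its fold interval of 0.809 to 1.36 was among the narrower ones (log2 fold change 0.07, edgeR adjusted p = 0.914). mlt-11 was at 520, 184 and 317 CPM in the mutant and 364, 264 and 518 CPM in the wild type, again highest in mutant replicate 1 and wild-type replicate 3 (-0.17, edgeR adjusted p = 0.911). bli-5 was scarce, at 1.43, 0.783 and 0.528 CPM in the mutant and 0.738, 0.611 and 0.968 CPM in the wild type (0.25, edgeR adjusted p = 0.869). The gene cope-1 lies on the other strand over bli-5. It held 966 to 1276 counts per library in the mutant and 1065 to 1608 in the wild type, against 14 to 40 for bli-5. Signs turned for mlt-11 without mutant replicate 2 (0.13) or wild-type replicate 3 (0.11), for bli-5 without mutant replicate 1 (-0.24), and for bli-4 without mutant replicate 1 (-0.05) or wild-type replicate 2 (-0.03).

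For 16 of the 43 tested members (37.2%), mutant replicate 1 and wild-type replicate 3 were the 2 highest libraries, beside 21.4% of all tested genes. The 16 were noah-1, noah-2, mlt-8, mlt-9, mlt-10, mlt-11, bli-5 and 9 astacins, hch-1, nas-4, nas-7, nas-12, nas-13, nas-14, nas-15, nas-23 and nas-28. Their log2 fold changes lay between -0.45 and 0.59 with a median of -0.04, and 0 of the 16 were called. The same libraries were the 2 lowest for 6 members (14.0%, beside 19.0% of all genes): mlt-7, nas-20, nas-29, nas-31, nas-32 and nas-33. Summed seam markers were at 423, 226 and 263 CPM in the mutant and 275, 254 and 534 CPM in the wild type, and summed epidermal markers at 439, 303 and 314 CPM in the mutant and 359, 358 and 522 CPM in the wild type. Both sums were highest in those 2 libraries, but among the epidermal markers only dpy-7, lin-26 and nhr-23 had that pattern singly. The epidermal marker elt-3 was lowest in mutant replicate 1, at 70.5 CPM. The scarce markers dpy-5, dpy-13 and rol-6 were at 1.22, 1.25 and 0.680 CPM there, not among their 2 highest libraries. The pattern was not limited to epidermis and seam. Summed germline precursor markers were at 57.5, 35.9 and 44.5 CPM in the mutant and 36.4, 40.1 and 50.2 CPM in the wild type. They were also highest in mutant replicate 1 and wild-type replicate 3, as were glh-1, pgl-1 and deps-1 singly, while nos-2 was highest in wild-type replicate 2. Summed neuronal markers, at 1470, 2441 and 2121 CPM in the mutant and 2412, 2627 and 1914 CPM in the wild type, had those 2 libraries as their lowest. So did summed body wall muscle markers, at 8176, 11660 and 11230 CPM in the mutant and 9807, 12180 and 9016 CPM in the wild type. The most abundant of them, unc-54, set most of that sum. The muscle marker hlh-1 was instead highest in mutant replicate 1 and wild-type replicate 3, at 28.2 and 36.0 CPM. Another, myo-3, was not low in mutant replicate 1, at 1555 CPM. The part of these cell types in the members' values was not tested. In RNA from whole animals, fewer cells of a type and less RNA per cell cannot be told apart.

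**Figure D4:**
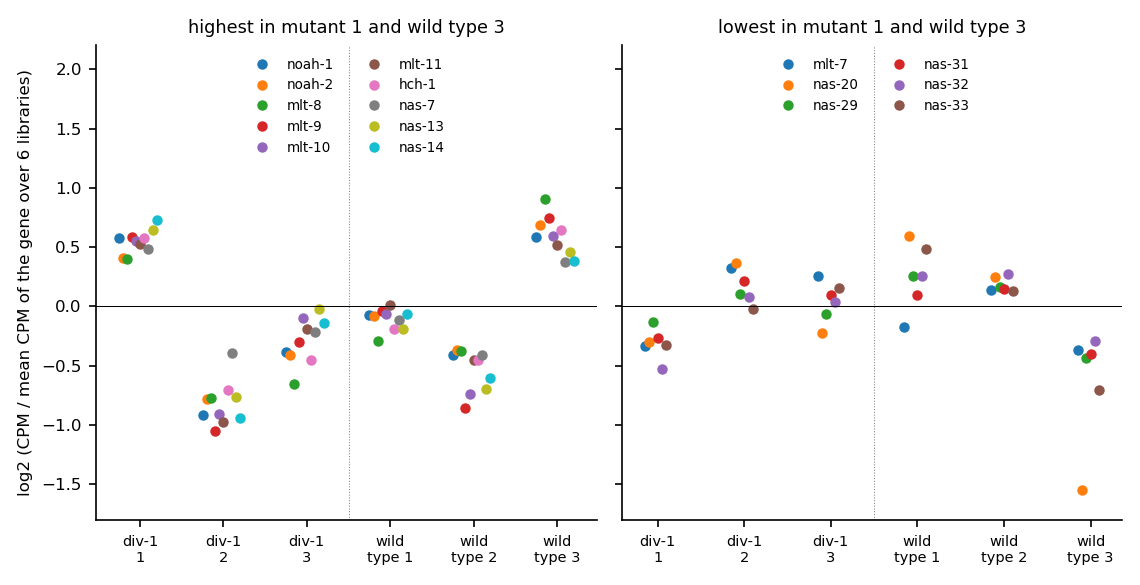
Log2 of each library's CPM over the gene's mean CPM across the 6 libraries, for 10 of the 16 members highest in div-1 mutant replicate 1 and wild-type replicate 3 (left) and the 6 members lowest there (right). Of the 16, bli-5, nas-4, nas-12, nas-15, nas-23 and nas-28 are not shown. The left-hand genes are above 0 in those libraries and below 0 or near it in the other 4.

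With both of those libraries left out, a setting chosen after seeing the data, nas-10 and nas-3 were called (edgeR adjusted p = 0.0123 and 0.0443). The number of members with an unadjusted p under 0.05 in the higher direction was again 11, beside 9.53% of all genes, with nas-27 in place of toh-1, and mlt-8 had such a p in the lower direction. Without mutant replicate 1 alone, mlt-8 and noah-2 did. Over all settings this number ranged between 6, without mutant replicate 3 (beside 5.82% of all genes), and 11. nas-3, nas-8, nas-10, nas-24, nas-36 and nas-38 were among them without mutant replicate 3.

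Lists of other genes of moulting, cuticle making and extracellular proteolysis gave 0 edgeR calls among 103 tested, beside 0.896% of all genes. At an unadjusted p under 0.05 were 3 of the 103 (2.91%, beside 10.7% of all genes), cutl-1, zmp-1 and adm-2, and DESeq2 called zmp-1 and adm-2. Counts of positive genes below stand beside 45.9% of all genes tested. In moult timing and epidermal transcription, 14 of 15 genes were tested and 6 were positive, with a median log2 fold change of -0.05, which was 0.005 with upper-quartile scaling. The count was 11 without wild-type replicate 3 (median 0.08), 10 without mutant replicate 2 (0.06) and 3 without mutant replicate 1 (-0.16). nhr-85, a nuclear receptor of the moulting timer, had the smallest p in that list (0.23, edgeR adjusted p = 0.685). In endocytosis and sterol handling for moulting, 6 of 16 were positive (median -0.09), a count that was 11 without wild-type replicate 3 (0.05), 8 without mutant replicate 2 (0.02) and 5 without mutant replicate 1 (-0.26). lrp-1, the megalin receptor that takes up sterols for moulting, was at 1141, 1040 and 1122 CPM in the mutant and 916, 1001 and 897 CPM in the wild type, without overlap (0.23, edgeR adjusted p = 0.636). daf-9, a cytochrome P450 that makes the steroid hormone dafachronic acid, had -0.43 (edgeR adjusted p = 0.595).

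Among matrix and zona pellucida proteins, 7 of 20 tested genes were positive (median -0.09), a count that was 16 without wild-type replicate 3 and 4 without mutant replicate 1. cutl-1, the only gene of this list with an unadjusted p under 0.05, differed by 1.58 on the log2 scale (edgeR adjusted p = 0.328) at 2.04, 0.453 and 1.21 CPM in the mutant and 0.369, 0.382 and 0.484 CPM in the wild type, groups that overlapped through mutant replicate 2. Among crosslinking and collagen-modifying enzymes, 4 of 10 were positive (median -0.02). The count was 7 without wild-type replicate 3 (0.07), 6 with upper-quartile scaling (0.04), 4 without mutant replicate 1 (-0.23) and 2 without wild-type replicate 2 (-0.14). A list of 12 cuticle collagens, chosen by name and not covering all those of the table, had 10 tested genes. All 10 had negative log2 fold changes, between -1.21 and -0.48 with a median of -0.64. The groups overlapped for each of them. Without wild-type replicate 3 the median was -0.03, with 4 of 11 tested genes of the list positive, and without both that library and mutant replicate 1 it was -0.37, with 2 of 9 positive. dpy-3, with the smallest p of them (edgeR adjusted p = 0.499), was at 60.9, 37.9 and 37.3 CPM in the mutant and 57.5, 53.5 and 101 CPM in the wild type, highest in wild-type replicate 3 and next in mutant replicate 1.

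The other extracellular metalloproteases, included the matrixin, ADAM and neprilysin families. Of 17 tested, 10 were positive (median 0.09), a count that was 8 without wild-type replicate 2 (-0.02) or mutant replicate 1 (-0.001), 13 without mutant replicate 2 (0.17) and 12 without wild-type replicate 3 (0.24). An unadjusted p under 0.05 was found for 2 of the 17 (11.8%, beside 10.7% of all genes). The matrix metalloprotease gene zmp-1 was at 16.1, 15.4 and 17.4 CPM in the mutant and 9.18, 10.1 and 8.87 CPM in the wild type, well separated (log2 fold change 0.80, edgeR adjusted p = 0.0581, DESeq2 adjusted p = 9.34e-04). The ADAM gene adm-2 was at 81.8, 67.3 and 77.7 CPM in the mutant and 49.5, 48.1 and 49.8 CPM in the wild type, also without overlap (0.62, edgeR adjusted p = 0.0822, DESeq2 adjusted p = 0.00585). Other convertases and inhibitors had a median of -0.07 over 5 genes, which ranged from -0.22 without wild-type replicate 3 to 0.03 without mutant replicate 1. Of 13 genes related to mlt-10, a list added after the table was read, 9 were tested and 3 were positive (median -0.06), with mltn-5 lowest in p (-0.73, edgeR adjusted p = 0.555). That median was -0.57 without mutant replicate 1, 0.15 without mutant replicate 2, 0.16 without wild-type replicate 3 and 0.11 over all 13 with nearly no count filter.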

How the data were processed

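The data are raw counts of reads for genes and repeats in 6 libraries, in 1 table that the authors deposited without normalisation. The submitters' processing notes name TopHat2 (2.1.0), featureCounts (1.5.0) as well as DESeq2 (1.8.1). The sources used here give no genome build, annotation or use of strand, so overlapping and antisense genes cannot be told apart. Per the labels, inserts of 18 to 36 bp were sequenced with reads of 50 bases, which are longer than such inserts, and the titles say mRNA. The labels do not settle the true insert length, and counts of similar paralogs are therefore uncertain. The labels call the libraries biological replicates. Repeat and reporter rows were left out.

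Gene counts were scaled by TMM in edgeR 4.0.16 (R 4.3.3), filtered by its default rule (minimum count 10, here about 0.388 CPM) and fitted by group with a robust quasi-likelihood model. The two-sided test was adjusted over all 16289 tested genes by Benjamini-Hochberg, with a threshold of 0.05. The common biological coefficient of variation was 0.224. Intervals at 95% come from that fit. The procedure was tested on simulated data. Alternatives were other scalings, filters, DESeq2 1.42.0, limma 3.58.1 (voom), a replicate block, coding genes alone and each library left out. Members and lists were chosen with earlier results of these data known. Members are named if called, if their unadjusted p was under 0.05, for a known role, or as the 5 most abundant nas genes per kilobase among the rest. Per list, up to 2 genes with the smallest p are named. Ensembl WBcel235 gave lengths, chromosomes and neighbours for 49 of the 50 genes.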

Additional observations from a re-analysis of the deposited data

How the results depend on the processing

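Of 16289 genes, 146 were called. The count was 306 with nearly no count filter, 478 with DESeq2, 52 with the replicate block and 241 without mutant replicate 1 and wild-type replicate 3 together, and 36 to 116 with 1 library left out. Of the members, 1 was called. The count was 2 with nearly no filter (nas-3 and nas-10), 3 with DESeq2 (also nas-38), 2 with both libraries out, and between 0 (without mutant replicate 3) and 2 (without mutant replicate 1). The replicate block called 0 members, with an edgeR adjusted p of 0.0559 for nas-10. No label says that replicate numbers pair the samples. The block used the numbers of the titles. In the deposited column names the mutant libraries are MUT1, MUT3 and MUT4 and the wild-type libraries TR2, TR3 and TR4, in that order. The names of replicate 1 thus carry different numbers in the mutant and the wild type. Deviations of same-numbered libraries correlated at -0.22, 0.50 and -0.32, which cannot decide whether they were prepared in pairs. The median log2 fold change of the members kept its sign, with values from 0.016 (without mutant replicate 1) to 0.271 (without wild-type replicate 3). The cause of these shifts was not tested.

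Single members that changed sign were not called in any setting. nas-7 gave -0.005 with nearly no filter and -0.003 with DESeq2, and nas-14 gave -0.02 with the replicate block. Without both libraries, nas-7 gave -0.047, bli-4 -0.013, bli-5 -0.044, nas-14 -0.174 and mlt-4 0.244. With 1 library left out, log2 fold changes ranged from -0.054 to 0.141 for bli-4, -0.24 to 0.528 for bli-5, -0.653 to 0.226 for hch-1, -0.242 to 0.271 for mlt-4, -0.918 to 0.087 for mlt-8, -0.721 to 0.286 for mlt-9, -0.479 to 0.323 for mlt-10 and -0.61 to 0.126 for mlt-11. They ranged from -0.292 to 0.258 for nas-7, -0.19 to 0.33 for nas-9, -0.447 to 0.391 for nas-14, -0.098 to 0.188 for nas-31, -0.722 to 0.12 for noah-1 and -0.739 to 0.037 for noah-2. With 3 libraries per group, intervals were wide for scarce members such as nas-27 (SE 0.608) and also for abundant ones that varied between libraries, such as mlt-9 (SE 0.481).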
